A study of Mus musculus with 12 samples.

Results

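YAP/TAZ regulators and targets were followed as 10 genes of the Hippo pathway, chosen by name from the 21638 genes of the deposited table: the cofactors Yap1 and Wwtr1, the DNA-binding factors Tead1 and Tead4, the inhibitors Lats2 and Amotl2, the LATS-binding protein Ajuba, and the targets Ccn1, Ccn2 and Ankrd1. RNA was measured in endothelial cells of the adult mouse brain cortex, sorted as CD31+ CD41- CD45-, a gate that keeps endothelium and leaves out platelets and leukocytes. There were 12 libraries in 4 groups of 3. WT mice were the controls, and the labels do not state whether they carried Cre or received tamoxifen. Hdac2 ECKO mice were Hdac2lox/lox:Cdh5CreERT2, with endothelial loss of a histone deacetylase. Mice labelled as Ezh2 ECKO were Ezh2lox/lox:Cdh5CreERT2, with endothelial loss of a Polycomb methyltransferase. The β-catenin GOF mice were Ctnnb1lox/lox:Cdh5CreERT2, with a constitutively active β-catenin. Cdh5CreERT2 is a Cre recombinase under an endothelial promoter that acts only after tamoxifen. Mutants received 5 doses of 75 mg/kg, and brains were taken 2 months later, at an adult age that the labels do not give further.

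Ccn2, which encodes a secreted matrix protein, rose in Hdac2 ECKO mice and in libraries labelled as Ezh2 ECKO, to 2.26-fold and 2.84-fold of WT. It was the only 1 of the 9 tested genes that passed, where 9.2% and 1.03% of all tested genes were called. With a replicate left out, the call held in 1 of 6 fits for Hdac2 ECKO and in 2 of 6 for the libraries labelled as Ezh2 ECKO. Ccn1, the closest relative of Ccn2 among the 10 genes, lay below WT in the mean of all 3 mutants without passing. In the libraries labelled as Ezh2 ECKO this sign turned when WT replicate 1 was left out. Lats2 and Amotl2, inhibitors that are themselves YAP/TAZ targets, had higher group means than WT in every mutant and moved together over the 12 libraries, but did not pass. Ankrd1 was at or near 0 counts.

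YAP and TAZ, the products of Yap1 and Wwtr1, are transcriptional cofactors. When the kinases of the Hippo pathway are active, LATS1 and LATS2 phosphorylate them and they are kept in the cytoplasm and degraded. Otherwise they enter the nucleus and act through TEAD proteins on targets such as Ccn1, Ccn2 and Ankrd1. In endothelium the pair responds to blood flow, matrix stiffness and cell contact, and is required for vessel sprouting and barrier maturation in the developing brain and retina.

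TEAD proteins bind the hexamer GGAATG, which reads CATTCC on the other strand. RefSeq promoter windows on GRCm38.p6, each from 250 bases before to 50 after a start site, were at hand for 7 of the 10 genes: Yap1, Wwtr1, Ccn1, Amotl2, Ankrd1, Lats2 and Ajuba. All 7 held the hexamer in at least 1 window, and Lats2 held it in 1 of its 2. Of all 32851 windows of this length, 14.7% held it, and of 27025 genes 16.6% did in any window. The share was 62.5% (5 of 8) in the other partners of YAP/TAZ and TEAD, 27.3% (3 of 11) in the other genes of a YAP/TAZ target signature, 22.7% (5 of 22) in the other Hippo regulators and 11.1% (1 of 9) in immediate early genes. Distances below run from the start site to the first base of the hexamer. The Wwtr1 site lay in both windows of that gene, 170 bases before the start of window 1 and 136 before that of window 2, and the second distance is given. The following 30-base stretches show the hexamer in capitals with its surroundings, 5′ to 3′ on the strand of the gene, because the sites lie at such different distances from the start.

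Ccn1, 103 bases before the start, chr3:145650071-145650100, minus strand: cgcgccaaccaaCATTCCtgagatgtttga
Amotl2, 65 before, chr9:102717727-102717756, plus strand: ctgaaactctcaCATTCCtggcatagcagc
Wwtr1, 136 before, chr3:57576029-57576058, minus strand: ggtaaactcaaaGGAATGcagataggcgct
Yap1, 141 before, chr9:8004720-8004749, minus strand: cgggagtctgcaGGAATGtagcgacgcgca
Ankrd1, 210 before, chr19:36120037-36120066, minus strand: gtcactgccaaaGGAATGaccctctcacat
Ankrd1, 123 before, chr19:36119950-36119979, minus strand: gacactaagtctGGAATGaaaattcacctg
Ajuba, 186 before, chr14:54577830-54577859, minus strand: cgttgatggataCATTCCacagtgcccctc
Ajuba, 164 before, chr14:54577808-54577837, minus strand: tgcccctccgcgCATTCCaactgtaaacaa
Lats2, at base 5 after the start, chr14:57746102-57746131, minus strand: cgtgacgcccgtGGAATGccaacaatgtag

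Ankrd1 and Ajuba carried a pair of hexamers each, and the other genes 1. The Ccn1 site lay within the 250 bases before the start (chr3:145649986-145650235, minus strand), printed whole because Ccn1 had the highest level per length of the 10 genes and varied more between WT libraries than the other 8 tested genes, with the hexamer in capitals.

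Ccn1: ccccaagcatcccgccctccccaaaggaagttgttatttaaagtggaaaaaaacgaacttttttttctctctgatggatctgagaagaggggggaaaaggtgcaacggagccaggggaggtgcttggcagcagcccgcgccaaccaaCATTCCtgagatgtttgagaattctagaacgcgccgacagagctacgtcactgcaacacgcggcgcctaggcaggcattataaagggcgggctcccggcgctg

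A match to the hexamer is a description of the sequence, and binding was not measured here. Ccn2, Tead1 and Tead4 are not shown. By GENCODE, the Amotl2 and Ankrd1 stretches also lie in untranslated exons of other transcripts of the same genes.

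Total counts ran from 24781070 to 36109975 per library, and edgeR was run on the 12577 genes that averaged 10 counts or more, 9 of the 10 genes among them. Levels below are CPM, counts per 1000000 of the TMM-scaled library. The labels do not say whether replicates came from separate animals, so p-values measure the spread between these samples, which may be technical. The 10 endothelial markers summed to 14763 to 20785 CPM in WT, 11841 to 14039 in Hdac2 ECKO, 14574 to 20429 in the libraries labelled as Ezh2 ECKO and 17541 to 20782 in β-catenin GOF. Most of this was Ly6c1 (12890 CPM on average in WT), and Tie1 averaged 58.3 CPM there. Cldn5 lay below WT in both knockout groups (-1.10 and -1.12 log2 units, edgeR adjusted p = 0.10 and 0.14), and 6 of the 10 lay above WT in each. Neuronal markers summed to at most 1.11 CPM. Oligodendrocyte markers summed to at most 65.7 CPM, reached in WT replicate 3. On the first principal component of all tested genes (25.7% of the variance), replicate 2 of both knockout groups stood apart from its group: 12.2 against 93.2 and 63.9 in Hdac2 ECKO, and -45.5 against 57.7 and 50.9 in the libraries labelled as Ezh2 ECKO, with WT between -69.8 and -30.8. The targeted genes gave little check of the labels: against WT, Hdac2 differed by -0.42 log2 units in Hdac2 ECKO (edgeR adjusted p = 0.22), and Ctnnb1 by -0.17 in β-catenin GOF (0.96). Ezh2 averaged 8.92 ± 3.36 CPM (SD, n = 3) in the libraries labelled as Ezh2 ECKO against 6.75 ± 3.52 in WT, a difference against the label (0.40 log2 units, edgeR adjusted p = 0.61). Which exons the lox alleles flank is not given, and a count over the whole gene need not fall when part of it is deleted.

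Per kilobase of transcript, the WT levels spanned Ccn1 to Ankrd1 in this order. Ccn1 led with 103 ± 68.5 CPM per kb (SD, n = 3), followed by Wwtr1 with 31.0 ± 1.19. Lats2 (9.18 ± 2.78), Amotl2 (8.27 ± 2.16) and Ccn2 (6.14 ± 1.05 CPM per kb) formed a middle range in which neighbours overlapped. Yap1 (1.88 ± 0.33), Tead4 (1.57 ± 0.33), Tead1 (1.10 ± 0.31) and Ajuba (0.83 ± 0.31) were low and likewise overlapped with their neighbours. Lowest was Ankrd1 at 0.0073. The TAZ gene Wwtr1 thus stood above the YAP gene Yap1 in every WT library, by ranges of 30.1 to 32.4 against 1.57 to 2.22 CPM per kb.

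**Figure D1:**
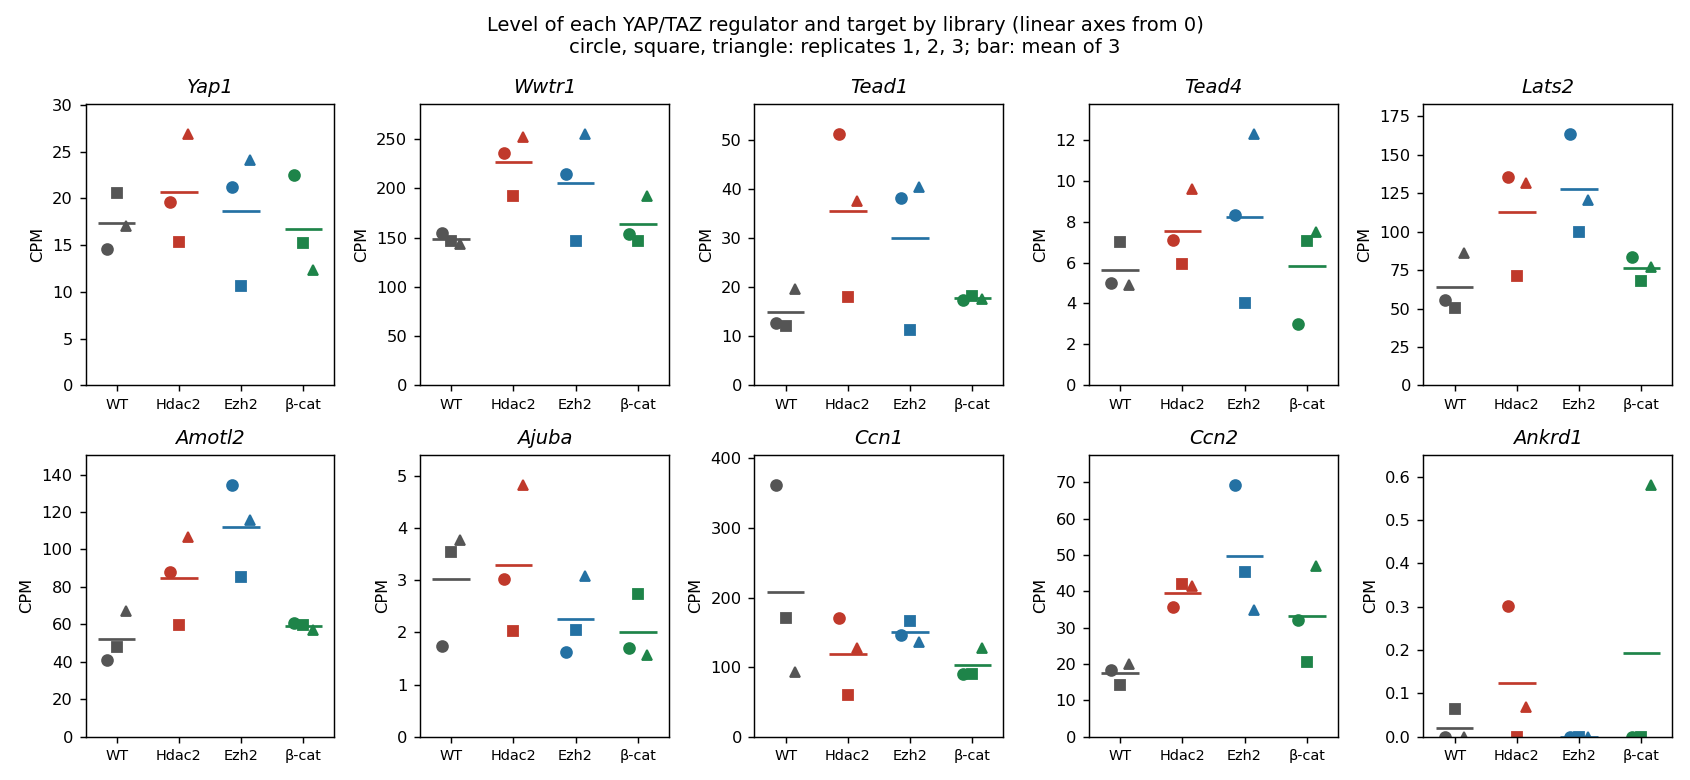
CPM of each of the 10 genes (y axis, linear from 0) in the 12 libraries, by group (x axis; Ezh2 stands for the libraries labelled as Ezh2 ECKO and β-cat for β-catenin GOF), with 1 symbol per replicate and a bar at the mean of 3. Ccn2 is at 14.2 to 20.0 CPM in WT and at 20.7 CPM or more in all 9 mutant libraries, while Ccn1 is highest in a WT library at 361.6 CPM.

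Among the cofactors, Yap1 (ENSMUSG00000053110.13, chr9:7931999-8004596, minus strand, GRCm38) varied within groups as much as between them. Its levels were 14.6, 20.6 and 17.0 CPM in WT and 19.6, 15.3 and 26.9 in Hdac2 ECKO mice, then 21.2, 10.6 and 24.1 in the libraries labelled as Ezh2 ECKO, and 22.5, 15.2 and 12.4 in β-catenin GOF. All 4 groups overlapped. The differences from WT were 0.25, 0.10 and -0.06 log2 units in that order of mutants, each with an SE of 0.35, and edgeR adjusted p-values of 0.64, 0.88 and 0.99.

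Wwtr1 (ENSMUSG00000027803.14, chr3:57455649-57575910, minus strand) was tight in WT, at 154.7, 146.7 and 143.7 CPM. It stood at 236.4, 192.6 and 252.1 CPM in Hdac2 ECKO, at 214.7, 146.2 and 255.4 in the libraries labelled as Ezh2 ECKO, and at 153.4, 147.1 and 192.3 in β-catenin GOF. All Hdac2 ECKO libraries were above all WT libraries, whereas the other mutants each kept a library at the WT level. The Hdac2 ECKO difference of 0.61 log2 units (SE 0.24) did not pass (edgeR adjusted p = 0.0995). Differences of 0.47 in the libraries labelled as Ezh2 ECKO and 0.15 in β-catenin GOF had edgeR adjusted p-values of 0.24 and 0.96.

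Tead1 and Tead4 encode TEAD factors, which bring YAP and TAZ to DNA. Tead1 (ENSMUSG00000055320.17, chr7:112679318-112906807, plus strand) stood at 12.8, 12.1 and 19.7 CPM in WT, at 51.3, 18.0 and 37.6 in Hdac2 ECKO, at 38.3, 11.4 and 40.4 in the libraries labelled as Ezh2 ECKO, and at 17.5, 18.3 and 17.7 in β-catenin GOF. In Hdac2 ECKO replicate 2 was within the WT range, in the libraries labelled as Ezh2 ECKO replicate 2 was below it, and the other libraries of both were well above it. The differences were 1.26 (SE 0.44), 1.01 (0.44) and 0.26 (0.43) log2 units, with edgeR adjusted p-values of 0.070, 0.17 and 0.96. Its transcript, 13570 bases long, is longer than that of 96.1% of the tested genes. After a correction for length and GC content the 3 differences were 0.50, 0.46 and 0.09. Over all tested genes, differences from WT were higher for longer transcripts: in Hdac2 ECKO the median was -0.52 log2 units among the shortest transcripts and 0.66 among the longest (the outer bins of 5 of equal size), in the libraries labelled as Ezh2 ECKO -0.21 and 0.43, and in β-catenin GOF -0.01 and 0.13. Spearman's rho between fold change and length, across genes, which are not independent replicates, was 0.44, 0.29 and 0.14.

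Tead4 (ENSMUSG00000030353.15, chr6:128224288-128300823, minus strand) was low throughout, at 4.9 to 7.0 CPM in WT, 5.9 to 9.6 in Hdac2 ECKO, 4.0 to 12.3 in the libraries labelled as Ezh2 ECKO and 3.0 to 7.5 in β-catenin GOF. The groups overlapped, and edgeR adjusted p-values were 0.54, 0.47 and 0.997.

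Lats2 and Amotl2 restrain YAP and TAZ, the first as a kinase and the second as an angiomotin-like protein that holds YAP at cell junctions, and both are transcribed by YAP/TAZ in turn. Lats2 (ENSMUSG00000021959.16, chr14:57689662-57758388, minus strand) measured 55.3, 50.5 and 86.2 CPM in WT and 135.8, 71.1 and 131.3 in Hdac2 ECKO mice, then 163.6, 99.5 and 120.5 in the libraries labelled as Ezh2 ECKO, and 83.6, 67.9 and 76.9 in β-catenin GOF. Only the libraries labelled as Ezh2 ECKO were all above WT. The differences were 0.82, 1.00 and 0.25 log2 units (SE 0.30 each), with edgeR adjusted p-values of 0.080, 0.081 and 0.95. Lats2 overlaps Gm49361 on the same strand, a gene of 6.26 CPM in WT, so some of its reads may have been counted elsewhere. Yap1, Wwtr1, Tead1, Tead4, Ccn2 and Lats2 also overlap annotated genes on the other strand, none of them in the table, and the use of strand in counting is not given.

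Amotl2 (ENSMUSG00000032531.15, chr9:102716672-102733418, plus strand) repeated the order of Lats2. Its levels were 40.9, 48.0 and 67.2 CPM in WT and 88.1, 59.9 and 106.8 in Hdac2 ECKO mice, then 134.3, 85.4 and 115.9 in the libraries labelled as Ezh2 ECKO, and 61.0, 59.6 and 57.0 in β-catenin GOF. The libraries labelled as Ezh2 ECKO were again all above WT, and the other mutants overlapped with it. The differences were 0.71 (SE 0.27), 1.11 (0.28) and 0.19 (0.27) log2 units, with edgeR adjusted p-values of 0.092, 0.057 and 0.95. Without WT replicate 3, the highest of its group, Amotl2 and Lats2 passed in both Hdac2 ECKO (adjusted p = 0.048 and 0.039) and the libraries labelled as Ezh2 ECKO (0.022 and 0.029). Without replicate 2 of the mutant, the lowest of its group, they passed in Hdac2 ECKO (0.045 and 0.029) and in the libraries labelled as Ezh2 ECKO (0.012 and 0.021). In each comparison both genes passed in only these 2 of 6 fits with a replicate left out. Leaving out the library nearest to the other group widens the difference by construction. Over all genes, calls in such fits ranged from 0 to 2220 in Hdac2 ECKO and from 2 to 2328 in the libraries labelled as Ezh2 ECKO. Corrected for length and GC content, the differences were 0.37 for Amotl2 and 0.46 for Lats2 in Hdac2 ECKO, and 0.97 and 0.82 in the libraries labelled as Ezh2 ECKO.

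Ajuba (ENSMUSG00000022178.11, chr14:54567472-54577558, minus strand), a LIM-domain protein that binds and inhibits LATS kinases, ranged from 1.6 to 4.8 CPM over all libraries. The groups overlapped in each comparison, and edgeR adjusted p-values against WT were 0.90, 0.67 and 0.94.

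Ccn1 and Ccn2 encode secreted matricellular proteins of the same family and serve as the usual readouts of YAP/TAZ activity. Ccn2 (ENSMUSG00000019997.11, chr10:24595442-24598683, plus strand) stood at 18.5, 14.2 and 20.0 CPM in WT. It was at 35.6, 41.9 and 41.6 in Hdac2 ECKO, at 69.2, 45.4 and 34.9 in the libraries labelled as Ezh2 ECKO, and at 32.0, 20.7 and 47.1 in β-catenin GOF. Each of the 9 mutant libraries was above each WT library, by the narrowest margin in β-catenin GOF replicate 2. Group means were 17.6 ± 3.02 CPM (SD, n = 3) in WT, 39.7 ± 3.53 in Hdac2 ECKO, 49.8 ± 17.6 in the libraries labelled as Ezh2 ECKO and 33.3 ± 13.2 in β-catenin GOF.

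Ccn2 rose by 1.18 log2 units in Hdac2 ECKO (SE 0.33, edgeR adjusted p = 0.041) and by 1.503 in the libraries labelled as Ezh2 ECKO (SE 0.33, 0.048). In β-catenin GOF the difference of 0.92 (SE 0.32, 1.89-fold) did not pass (0.71). With a length and GC correction the 3 values were 1.56 (adjusted p = 0.028), 1.83 (0.032) and 1.01 (0.56). Both calls sat close to the threshold of 0.05. In Hdac2 ECKO the call was lost without WT replicate 1 (adjusted p = 0.14), without WT replicate 2 (0.13), and without Hdac2 ECKO replicate 1 (0.16), 2 (0.051) or 3 (0.15), with differences of 1.04 to 1.28. In the libraries labelled as Ezh2 ECKO it was lost without WT replicate 1 (0.17) or 2 (0.16) and without mutant replicate 1 (0.18) or 3 (0.10), with differences of 1.17 to 1.70. It was also lost there with the compared groups fitted alone (0.11), with median-ratio scaling (0.0506) and with library size scaling (0.053), while the difference of Ccn2 kept its sign under each of these alternatives.

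Ccn1 (ENSMUSG00000028195.4, chr3:145646976-145649981, minus strand) differed most between the WT libraries among the 9 tested genes, at 361.6, 170.8 and 92.9 CPM. It measured 171.5, 60.6 and 127.1 CPM in Hdac2 ECKO mice, 146.6, 167.1 and 136.4 in the libraries labelled as Ezh2 ECKO, and 89.6, 90.5 and 127.5 in β-catenin GOF. Every mutant group overlapped with WT, and WT replicate 1 was above all other libraries. The differences were -0.80, -0.47 and -1.02 log2 units (SE 0.42 each), with edgeR adjusted p-values of 0.20, 0.50 and 0.78. After the length and GC correction they were -0.05, 0.0043 and -0.91, and without WT replicate 1 the difference in the libraries labelled as Ezh2 ECKO changed sign to 0.19.

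Ccn1 is also known as an immediate early gene, transcribed within minutes of a stimulus such as tissue dissociation. Of 12 other immediate early genes, 11 had the same order of WT libraries as Ccn1. The share of all tested genes with this order was not counted. The summed level of the 12 was 3667 to 11166 CPM in WT, 1834 to 5043 in Hdac2 ECKO, 4177 to 4799 in the libraries labelled as Ezh2 ECKO and 2795 to 4040 in β-catenin GOF. In the 3 mutants 4, 6 and 1 of the 12 lay above WT, against 54%, 52.6% and 51.1% of all tested genes. Atf3, Junb, Ier2 and Zfp36, regulators of transcription or RNA decay, fell in Hdac2 ECKO (edgeR adjusted p = 0.032 each), with log2 changes of -2.41, -2.18, -2.20 and -1.99. These were 4 of 12, where 9.2% of all genes were called. Atf3 also fell in the libraries labelled as Ezh2 ECKO (-1.81, 0.048), 1 of 12 against 1.03%. In β-catenin GOF edgeR called 0 of the 12, beside 7 at an unadjusted p under 0.05 (6.06% of all genes), while DESeq2 and limma with sample quality weights called 1 each. Without WT replicate 1, adjusted p was 0.092 for Atf3 in Hdac2 ECKO mice, 0.23 for Atf3 in the libraries labelled as Ezh2 ECKO, and 0.13 for each of the other genes. In Hdac2 ECKO all 4 also lost the call without WT replicate 2 (0.091 each), Hdac2 ECKO replicate 1 (0.16 each) or replicate 3 (0.13 each). The Atf3 call of the other mutant was lost without WT replicate 2 (0.16) and without mutant replicate 1 (0.18) or 3 (0.14). Their part in the level of Ccn1 was not tested.

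Set against Ccn1 in the same library, Ccn2 gave 5.11, 8.32 and 21.6 counts per 100 Ccn1 counts in WT. The ratio was 20.8, 69.2 and 32.7 in Hdac2 ECKO mice, 47.2, 27.1 and 25.6 in the libraries labelled as Ezh2 ECKO, and 35.7, 22.8 and 36.9 in β-catenin GOF. All libraries of the last 2 groups were above WT, and in Hdac2 ECKO replicate 1 fell just inside the WT range. Exact two-sided permutation tests of 3 against 3 gave p = 0.2 for Hdac2 ECKO and 0.1 for each of the other groups, and 0.1 is the smallest value this design allows.

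**Figure D2:**
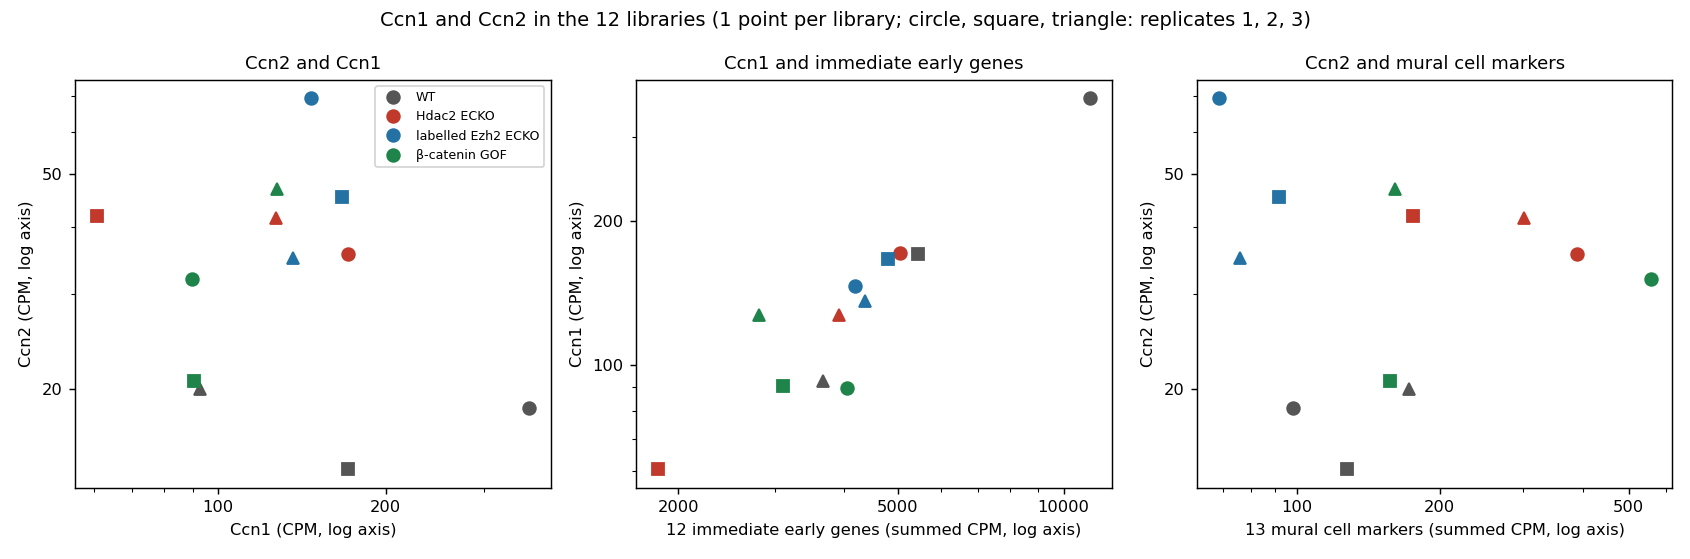
Each point is 1 of the 12 libraries, with CPM on log axes: Ccn2 against Ccn1 (left), Ccn1 against the summed level of 12 immediate early genes (middle), and Ccn2 against the summed level of 13 mural cell markers (right). WT replicate 1 is highest both in Ccn1 (361.6 CPM) and in immediate early genes (11166 CPM), and the libraries labelled as Ezh2 ECKO combine Ccn2 of 34.9 to 69.2 CPM with the lowest mural marker sums.

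Ankrd1 (ENSMUSG00000024803.9, chr19:36111961-36120099, minus strand), a target that YAP/TAZ induce strongly in muscle and in many cultured cells, was below the filter with a mean of 2.67 counts. Its counts were 0, 2 and 0 in WT, 8, 0 and 2 in Hdac2 ECKO, 0 in all 3 libraries labelled as Ezh2 ECKO, and 0, 0 and 20 in β-catenin GOF. In 10 of the 12 libraries it was at or under 3 counts, which corresponds to 0.083 to 0.12 CPM. This is the limit that a count of 0 allows if each count is a separate fragment, and it is higher if both mates of a pair were counted. Among these libraries, WT replicate 2 and Hdac2 ECKO replicate 3 had 2 counts each. Expression there was at or under the limit of detection at this depth.

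Counted over the 9 tested genes, 1 was called in Hdac2 ECKO, where 9.2% of all tested genes were called, and 1 in the libraries labelled as Ezh2 ECKO, against 1.03%. In β-catenin GOF edgeR called 0 of 9 and 0% of all genes. At an unadjusted p under 0.05 the counts in β-catenin GOF were 2 of 9 and 762 of 12577 genes (6.06%), and DESeq2 and limma with sample quality weights also called 0 of the 9. Genes with all mutant libraries above all WT libraries were Wwtr1 and Ccn2 in Hdac2 ECKO, Ccn2, Amotl2 and Lats2 in the libraries labelled as Ezh2 ECKO, and Ccn2 in β-catenin GOF. The shares of all tested genes with that pattern were 19.5%, 11.1% and 6.83%. The median difference of the 9 was 0.61, 0.54 and 0.15 log2 units, beside 0.10, 0.05 and 0.01 over all tested genes. These medians were not corrected for length and GC content. The 3 comparisons share the WT libraries.

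**Figure D3:**
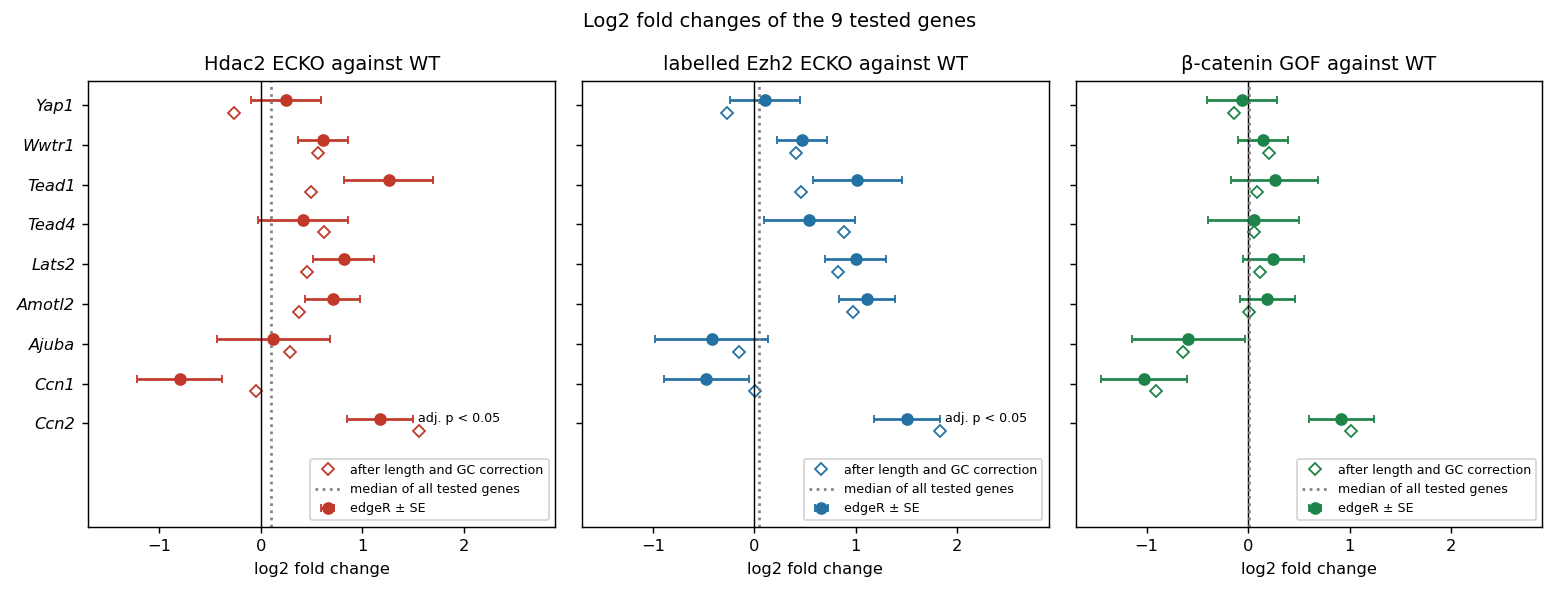
Log2 fold changes against WT (x axis) of the 9 tested genes (y axis) in the 3 mutants, as edgeR estimates with their SE (filled) and after a correction for length and GC content (open), with the median of all tested genes dotted. Ccn2 stands farthest right in each panel after the correction (1.56, 1.83 and 1.01), and Tead1 moves from 1.26 to 0.50 in Hdac2 ECKO.

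Direct comparisons between mutants called 0 of the 9 genes in edgeR. For Hdac2 ECKO against the libraries labelled as Ezh2 ECKO, 0 of 9 had an unadjusted p under 0.05 (8.19% of all genes), and 0.0239% of all genes were called. For β-catenin GOF against Hdac2 ECKO these values were 1 of 9 (21.1%) and 0.0716%, and against the libraries labelled as Ezh2 ECKO 2 of 9 (13.2%) and 0.0636%. DESeq2 called 0 in all 3 comparisons, and limma with sample quality weights called 0, 4 and 2. The edgeR shares do not apply to these counts. Over the alternative fits that kept all replicates, calls among all genes ranged from 1 to 199, from 1 to 3339 and from 10 to 1462. Amotl2 was 0.92 log2 units lower in β-catenin GOF than in the libraries labelled as Ezh2 ECKO, with no overlap, as had 8.69% of all genes (SE 0.27, edgeR adjusted p = 0.28). Without replicate 2 of the libraries labelled as Ezh2 ECKO, adjusted p was 0.040, the only 1 of 6 fits with a replicate left out that passed. Lats2 differed by -0.75 there (SE 0.30, adjusted p = 0.34) and Ccn1 by -0.55 (SE 0.42, 0.57), also without overlap, so that 3 of the 9 genes had this pattern. For Ccn2 the differences were -0.58 (SE 0.32, adjusted p = 0.43) in that comparison, -0.26 (0.67) in β-catenin GOF against Hdac2 ECKO, and -0.33 (0.79) in Hdac2 ECKO against the libraries labelled as Ezh2 ECKO. The rise of Ccn2 was therefore not shown to differ between the mutants.

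The other genes of the pathway were read from 3 lists that share members with the 10 genes. Of 29 tested Hippo kinases and upstream regulators, 3 rose in Hdac2 ECKO and 0 fell, near the 9.2% of all tested genes called there. Wwc2, a relative of the LATS activator KIBRA, rose from 56.3 ± 17.0 to 119 ± 26.0 CPM (SD, n = 3; edgeR adjusted p = 0.041). Fat4, a giant protocadherin, rose from 18.2 ± 5.10 to 36.2 ± 6.83 CPM (0.043), and Mob1a, a coactivator of LATS kinases, from 33.0 ± 5.01 to 62.1 ± 16.0 CPM (0.049). With the length and GC correction Wwc2 and Fat4 no longer passed (log2 differences of 0.33 and 0.15 instead of 1.08 and 0.99), while Mob1a did (0.84). Each of the 3 lost its call without WT replicate 1 (adjusted p = 0.15 for Wwc2, 0.17 for Fat4 and 0.17 for Mob1a), WT replicate 2 (0.11, 0.12 and 0.11), Hdac2 ECKO replicate 1 (0.17, 0.16 and 0.18) or Hdac2 ECKO replicate 3 (0.15, 0.17 and 0.18). Mob1a also lost it without WT replicate 3 (0.077).

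In the libraries labelled as Ezh2 ECKO and in β-catenin GOF edgeR called 0 of the 29 regulators. The counts at an unadjusted p under 0.05 were 9 and 0 (24.7% and 6.06% of all genes), those of DESeq2 6 and 0, and those of limma with sample quality weights 13 and 0. Over the alternative fits that kept all replicates, calls among all genes ranged from 17 to 3743 and from 0 to 157. Values above WT were seen for 25, 22 and 19 of the 29 genes in the 3 mutants, against 54%, 52.6% and 51.1% of all tested genes. Medians of the 29 genes were 0.70, 0.42 and 0.24 log2 units. The core kinase genes did not move alike: Stk3, which encodes MST2, differed by -0.33, -0.32 and -0.22 log2 units, and Lats1, whose product phosphorylates YAP, by 1.02, 1.10 and 0.47, none past the test. These core genes were chosen after their values were seen.

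Among 8 tested partners of YAP/TAZ and TEAD, Runx1, a transcription factor that binds YAP, rose in Hdac2 ECKO (edgeR adjusted p = 0.039). This was 1 of 8, where 9.2% of all tested genes were called. The counts of Runx1 were 2, 4 and 2 in WT and 90, 38 and 68 in Hdac2 ECKO, so a fold change would rest on a handful of WT counts. The call was lost without WT replicate 1 (0.15), 2 (0.11) or 3 (0.052), without Hdac2 ECKO replicate 1 (0.16) or 3 (0.14), and with the length and GC correction (0.063), while the fitted difference stayed between 3.94 and 4.99 log2 units (4.64 in the model of all libraries). Medians of the 8 were 0.57, 0.51 and 0.03 log2 units. In the other mutants edgeR called 0 of 8. At an unadjusted p under 0.05 there were 2 in the libraries labelled as Ezh2 ECKO and 0 in β-catenin GOF (24.7% and 6.06% of all genes), and DESeq2 called 1 and 0.

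Of 22 genes in the target signature 18 were tested. Ccn2 and Crim1 rose in Hdac2 ECKO, 2 of 18 where 9.2% of all genes were called. Ccn2 rose in the libraries labelled as Ezh2 ECKO, 1 of 18 against 1.03%. In β-catenin GOF edgeR called 0, beside 4 at an unadjusted p under 0.05 (6.06% of all genes) and 0 with DESeq2. Crim1, which encodes a membrane protein that binds growth factors, went from 49.9 ± 27.3 to 121 ± 34.8 CPM (edgeR adjusted p = 0.045), with groups that overlapped. It lost the call without WT replicate 1 (0.17) or 2 (0.14), without Hdac2 ECKO replicate 1 (0.18) or 3 (0.15), and with the length and GC correction (0.079). Medians of the 18 were 0.76, 0.52 and 0.16 log2 units, and 15, 13 and 13 genes lay above WT, against 54%, 52.6% and 51.1% of all tested genes.

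**Figure D4:**
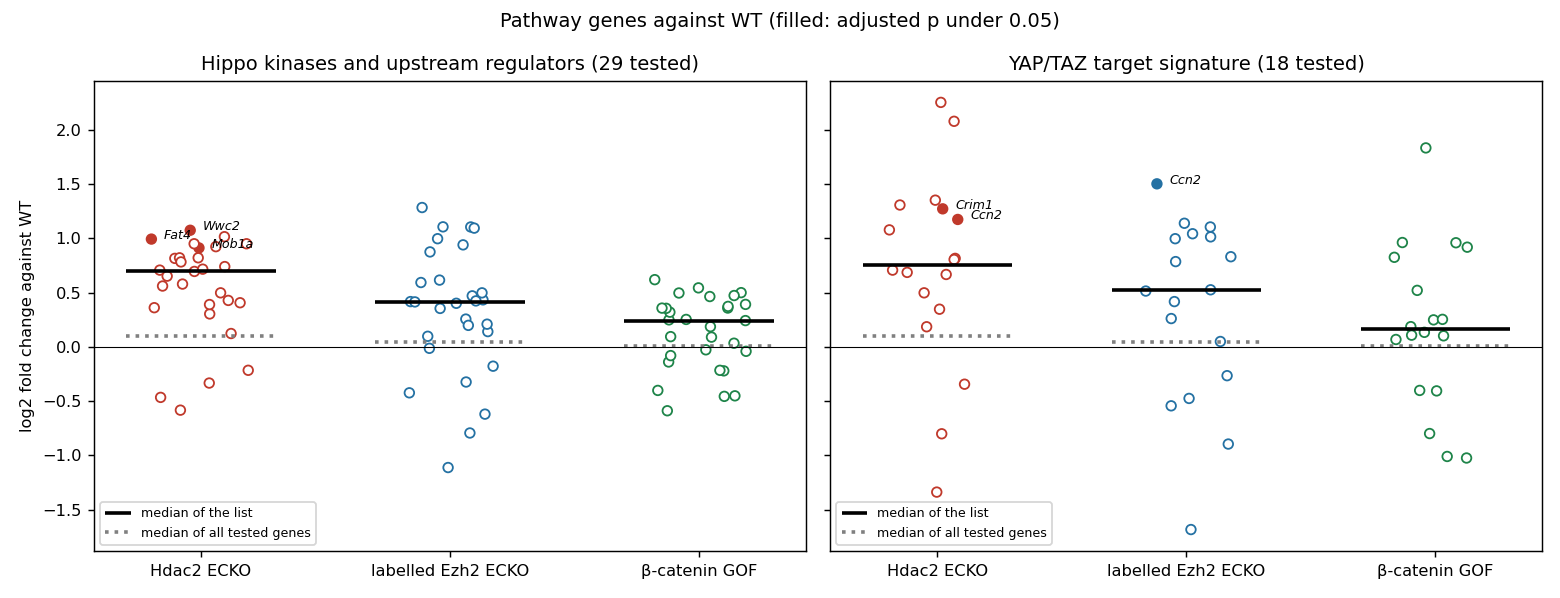
Log2 fold changes against WT (y axis) of 29 Hippo regulators (left) and 18 target signature genes (right) in the 3 mutants (x axis), 1 point per gene, filled where the adjusted p was under 0.05, with the median of the list (line) and of all tested genes (dotted). In Hdac2 ECKO the list medians are 0.70 and 0.76, and in β-catenin GOF 0.24 and 0.16.

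Likeness over the 12 libraries was described by Pearson's r of log2 CPM, where libraries share groups and depth. Amotl2 and Lats2 followed each other most closely (r = 0.95), Wwtr1 went with Tead1 (0.87), and Ccn2 went with Lats2 (0.75) and Amotl2 (0.70) but not with Ccn1 (-0.20). Among all tested genes the closest to Ccn2 were Evc (0.93) and Mt3 (0.93), and the closest to Ccn1 were Otud6b (0.90) and the immediate early gene Dusp1 (0.90). Amotl2 was nearest to Klf12 (0.97) and Snrnp48 (0.96), and Lats2 to Snrnp48 (0.98) and Zfp931 (0.97). For Wwtr1 these were Cpsf6 (0.97) and Zfp148 (0.97), for Tead1 Pp2d1 (0.97) and Gpcpd1 (0.97), for Tead4 Ctr9 (0.92) and Ankrd26 (0.90), for Yap1 2700081O15Rik (0.93) and Tctex1d4 (0.88), and for Ajuba Camkmt (0.88) and Gga3 (0.88).

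Markers of mural cells, the pericytes and smooth muscle cells that wrap vessels, moved with some groups. Of 12 tested mural markers 4 rose in Hdac2 ECKO (9.2% of all genes were called), with a list median of 1.30 log2 units there, -0.10 in the libraries labelled as Ezh2 ECKO and 1.30 in β-catenin GOF. In the latter groups edgeR called 0 of 12, beside 2 and 7 at an unadjusted p under 0.05 (24.7% and 6.06% of all genes), and DESeq2 called 1 and 0. Their summed level was 98.2 to 172 CPM in WT, 176 to 390 in Hdac2 ECKO and 68.4 to 91.6 in the libraries labelled as Ezh2 ECKO. In β-catenin GOF it was 557, 157 and 161 CPM, so that replicates 2 and 3 lay within the WT range. Of the 12 markers, 5 lay above WT there without overlap (6.83% of all genes). The smooth muscle marker Cnn1 was at 0 counts in all WT libraries, while Myl9 averaged 39.1, Tagln 28.6, Acta2 21.8 and Myh11 3.38 CPM there. In the libraries labelled as Ezh2 ECKO the sum was below WT in all 3, but 6 of the 12 markers lay above WT: Myl9 averaged 13.4 CPM against 39.1 in WT, and Notch3 2.25 against 0.88. These markers were chosen after their values were seen. Haemoglobin genes took 2.60% to 4.05% of counts in WT, 0.0338% to 1.62% in Hdac2 ECKO, 0.190% to 0.403% in the libraries labelled as Ezh2 ECKO and 0.0381% to 2.42% in β-catenin GOF. Summed astrocyte markers ran from 19.8 to 34.6 CPM in WT and from 35.4 to 72.1 over the 9 mutant libraries, without overlap, as for Ccn2. Among all tested genes, 19.5%, 11.1% and 6.83% lay above WT without overlap in the 3 mutants. Most of this was Gja1, a gap junction gene, at 25.9 ± 6.18 CPM (SD, n = 3) in WT, 49.9 ± 13.1 in Hdac2 ECKO, 50.1 ± 15.2 in the libraries labelled as Ezh2 ECKO and 42.6 ± 9.02 in β-catenin GOF (edgeR adjusted p = 0.056, 0.088 and 0.78). The astrocyte genes Gfap, Aldoc, Slc1a2 and Aqp4 averaged below 1 CPM in each group and did not move together. Gfap averaged 0.85 CPM in WT against 0.17, 0.19 and 0.67 in the 3 mutants, and Aldoc 0.40 against 0.033, 0.081 and 0.23. Slc1a2 averaged 0.49 CPM in WT against 0.70, 0.96 and 0.67, and Aqp4 0.070 against 0.35, 0.60 and 0. The part of mural, astrocyte and red blood cell RNA in the results of the 3 mutants was not tested. In sorted bulk RNA, fewer cells of a type and less RNA per cell cannot be told apart.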

How the data were processed

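RNA from sorted cortical endothelium was made into SMART-Seq v4 PLUS libraries and sequenced as read pairs, per the labels' protocols. FastQC, cutadapt, STAR, featureCounts, DESeq2 and mm10 are named, without versions, in the submitters' processing notes. Annotation, filters and use of strand are not given in the sources used here. The deposited table holds 1 count per gene and library; its title calls the values normalized, but they were whole numbers with unequal totals (24781070 to 36109975). Of the values from 10 to 50, 79.5% to 84.0% were even, so both mates of a pair may have been counted, and counting error is larger than the counts imply. Starts in the table count from 0 and were raised by 1; 99.1% of rows then matched GENCODE M21 (GRCm38).

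The 10 genes and the lists were chosen with earlier results of these data known. The test was edgeR 4.0.16 (R 4.3.3), quasi-likelihood F, TMM scaling, 1 model of 12 libraries without a block, mean count at least 10 (12577 genes), Benjamini-Hochberg within each of 6 contrasts, threshold 0.05. The SE was derived from F. From each list, up to 5 genes past the threshold in each direction and contrast against WT were named; likeness names the 2 closest genes. Alternatives were other scalings and filters, DESeq2 1.42.0, limma 3.58.1 with sample quality weights, a replicate block, a length and GC correction (loess), the compared groups alone, and each replicate left out. The fit was tested on simulated counts.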

Additional observations from a re-analysis of the deposited data

How the results depend on the processing

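The differences of Ccn2, Wwtr1, Tead1, Lats2 and Amotl2 from WT kept their sign under all alternatives in the 3 comparisons. The number of the 9 genes past the threshold in Hdac2 ECKO against WT, 1 in the report, was 5 with library size scaling, 2 without a filter, 2 with DESeq2, 5 with sample quality weights, 2 with a replicate block and 0 to 3 with a replicate left out. In the libraries labelled Ezh2 ECKO against WT, 1 in the report, it was 0 with median-ratio scaling, 0 with library size scaling, 4 without a filter, 2 at a mean count of 50, 3 with DESeq2, 5 with quality weights, 3 with the replicate block, 2 with block and length and GC correction, 0 with only the 2 groups compared and 0 to 5 with a replicate left out. Quality weights gave 4 for β-catenin GOF against Hdac2 ECKO (0 to 0 with a replicate left out) and 2 against the libraries labelled Ezh2 ECKO (0 to 1). Sign changes were Yap1 in Hdac2 ECKO (-0.26 with length and GC correction, -0.28 with the block added, -0.0118 to 0.38 with a replicate left out), in the libraries labelled Ezh2 ECKO (-0.27, -0.30, -0.14 to 0.38) and in β-catenin GOF (-0.34 to 0.12 with a replicate left out); Ajuba in Hdac2 ECKO (-0.28 to 0.33); Ccn1 in the libraries labelled Ezh2 ECKO (0.0043, 0.0701 with the block added, -0.83 to 0.19); and Tead4 in β-catenin GOF (-0.11 with quality weights, -0.0166 with the block, -0.0137 with block and correction, -0.16 to 0.37). The cause was not tested. Replicate numbers did not pair mutant libraries with WT: correlations of same-numbered deviations ran from -0.11 to 0.04, and 1, 0 and 0 of 3 mutant libraries correlated best with their own number. Between the mutants these correlations ran from -0.00917 to 0.23, with 2, 2 and 1 of 3, which does not settle whether numbers pair there. Over all genes, calls in Hdac2 ECKO against WT ranged from 0 to 2220 with a replicate left out (1157 in the report) and from 780 to 5374 under the other alternatives. In the libraries labelled Ezh2 ECKO against WT they ranged from 2 to 2328 (129 in the report) and from 17 to 3743. In β-catenin GOF against WT they ranged from 0 to 4 (0 in the report) and from 0 to 157. The counts of the 9 genes and of the lists under each alternative were not set against the share of all genes in the same fit. Library size scaling moved the median of all genes there from 0.10 to 0.34. Ankrd1 was limited by depth.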
